A study of Homo sapiens with 4 samples.

Results

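The TAL1 core circuit is a set of 10 transcriptional regulators of T cell acute lymphoblastic leukaemia: TAL1, LYL1, LMO2, GATA3, RUNX1, MYB, TCF3, TCF12, ID2 and ID3. Its members were taken as all probe sets whose gene symbol in the platform annotation was a single one of these names. This gave 33 probe sets of 9 genes, out of 19775 genes with such a probe set on the array. RUNX1 had 0 single-symbol probe sets, because each of its 13 probe sets carries further symbols, and it was not analysed here. Signals came from Jurkat, a long-established cell line from a human T cell leukaemia, on 4 oligonucleotide arrays with 1 array per group. The groups were a line with an shRNA against IKKε (shIKKE line) stimulated with 10 ng/ml PMA and 0.5 uM ionomycin for 3 h, a control line with the same stimulation, the shIKKE line with solvent, and the control line with solvent. The control construct is named a control hairpin in the design text and a vector in the sample titles. Both lines carry a construct and neither is described as a clone or a pool, and no array of unmodified Jurkat cells was used here. Because each group is 1 array, differences between single arrays are given as values with no p-value.

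TAL1 is a basic helix-loop-helix (bHLH) factor that is normally silent in maturing T cells and is expressed aberrantly in a large class of T cell leukaemias, to which Jurkat belongs. It binds the E-box motif as a dimer with an E protein, TCF3 (E2A) or TCF12 (HEB), and is joined by LMO2, a bridging protein without DNA binding of its own, and by GATA3, RUNX1 and MYB on shared enhancers. ID proteins carry the helix-loop-helix but no basic region, so they take E proteins into dimers that cannot bind DNA. PMA activates protein kinase C and ionomycin raises cytosolic calcium, which mimics signalling from the T cell receptor.

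The unit is the MAS5 signal, a linear intensity per probe set, and log2 differences are of the signal plus 14.1, which understates changes of dim probe sets. A probe set was kept where its highest array reached 56.4, the median of all signals, which held for 29 of the 33 member probe sets and for 13717 genes in all. Median signals were 69.1 and 59.8 on the stimulated shIKKE and control arrays, against 49.7 and 48.8 on the solvent arrays of the shIKKE and control lines, so the dim end moved with stimulation. Its part in the results below was not tested. Of 13 T cell markers, 12 were measured and 9 read above 1000 on all 4 arrays, and their summed signal lay between 80652 and 86038. Of 11 erythroid and megakaryocyte markers, from lineages where TAL1 is normally active, 8 were measured, 4 passed the filter and the highest read 272. Summed signals of B cell markers lay between 409 and 667, of myeloid markers between 138 and 277 and of epithelial markers between 154 and 347. IKBKE, the targeted gene, read 248 in the stimulated shIKKE line against 520 in the stimulated control line, while with solvent the shIKKE line read 180 against 340 in the control line. A second IKBKE probe set read 280 against 311 with stimulation and 287 against 218 with solvent. For shIKKE over control these are log2 -0.15 and 0.38, against -1.03 and -0.87 by the first probe set. The second thus repeated the size of the difference in neither treatment, and with solvent its direction was opposite.

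Upstream sequence is shown for 4 members whose stimulated and solvent arrays did not overlap, since TAL1, GATA, RUNX and E proteins act on one another's genes in this circuit. The arrays of GATA3 and MYB did not overlap either, and their windows are not shown. Each run is the 250 bases before the annotated start, 5′ to 3′ on the strand of the gene, from RefSeq on GRCh38.p14. Capitals mark the E-box CANNTG, the RUNX motif TGTGGT and the GATA motifs AGATAA and TGATAA, searched on both strands.
TAL1 (chr1:47232336-47232585, minus strand): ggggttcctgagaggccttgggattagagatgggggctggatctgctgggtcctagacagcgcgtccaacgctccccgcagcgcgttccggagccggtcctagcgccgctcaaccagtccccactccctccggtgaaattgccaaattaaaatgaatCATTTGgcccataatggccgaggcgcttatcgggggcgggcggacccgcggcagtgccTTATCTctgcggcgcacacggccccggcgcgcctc
LYL1 (chr19:13102859-13103108, minus strand): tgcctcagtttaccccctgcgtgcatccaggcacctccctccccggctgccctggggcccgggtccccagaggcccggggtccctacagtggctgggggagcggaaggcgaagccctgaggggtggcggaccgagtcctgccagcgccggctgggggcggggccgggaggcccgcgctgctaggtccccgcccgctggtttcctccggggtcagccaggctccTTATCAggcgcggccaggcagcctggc
ID2 (chr2:8681806-8682055, plus strand): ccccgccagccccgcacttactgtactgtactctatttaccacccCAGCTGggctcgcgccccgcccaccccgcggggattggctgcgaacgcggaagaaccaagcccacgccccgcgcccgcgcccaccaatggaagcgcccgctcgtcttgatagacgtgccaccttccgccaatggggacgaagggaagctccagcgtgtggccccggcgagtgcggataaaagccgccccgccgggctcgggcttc
ID3 (chr1:23559502-23559751, minus strand): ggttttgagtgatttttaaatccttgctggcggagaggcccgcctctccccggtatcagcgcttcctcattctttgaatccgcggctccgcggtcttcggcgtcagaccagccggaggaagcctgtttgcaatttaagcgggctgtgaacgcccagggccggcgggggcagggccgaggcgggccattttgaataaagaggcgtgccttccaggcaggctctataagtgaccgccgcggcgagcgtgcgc

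The TAL1 window held 1 E-box, which overlaps a match to the AP-1 motif TGANTCA, and 1 AGATAA 35 bases before the start. The LYL1 window held 1 TGATAA 27 bases before the start and no E-box. In the ID2 window there was 1 E-box 205 bases before the start and 1 match to the EGR motif GCGNGGGCG, while the ID3 window held none of the marked motifs and no EGR match. Among 35116 such windows of all genes, 61.8% held an E-box, 10.98% TGTGGT, 9.17% AGATAA, 6.66% TGATAA, 6.57% the AP-1 motif and 8.41% the EGR motif. RefSeq lists a second TAL1 start, whose window (chr1:47231716-47231965) held 3 matches to TGTGGT, a number reached by 0.0769% of windows. Several motifs were searched in many member windows, with 6 of GATA3 and 5 of TCF12 among them, so this rarity is a description only. The MYB core AACNG and the NFAT core GGAAA, held by 70.6% and 55.6% of windows, were searched too and are not marked. A match describes these letters and is not evidence of binding.

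TAL1 itself was among the brighter genes on every array and was lower with stimulation by its brightest probe set. It read 5419 in the stimulated shIKKE line against 9133 with solvent (log2 -0.75), and 6120 in the stimulated control line against 7296 with solvent (log2 -0.25). Both stimulated arrays lay below both solvent arrays, and neither difference reached 2-fold. The other TAL1 probe sets did not repeat the order. A second one read 686 against 1036 in the shIKKE line and 682 against 431 in the control line, and another read 244 against 211 and 225 against 221. The last one stayed at 7.4 or below on all 4 arrays, under the filter. With solvent, the second probe set was 2.40 times as high in the shIKKE line as in the control line (log2 1.24), while the brightest was 1.25 times as high (log2 0.32).

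LYL1, the close relative of TAL1 that can replace it in the complex, was dim and lower with stimulation in each line. Its 1 probe set read 118 in the stimulated shIKKE line against 234 with solvent (log2 -0.91), and 52.5 in the stimulated control line against 130 with solvent (log2 -1.12). Stimulated and solvent arrays again did not overlap. The shIKKE line was the higher one in both treatments, by log2 0.99 with stimulation and 0.78 with solvent. One of these 4 signals, that of the stimulated control line, lay below the filter.

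**Figure D1:**
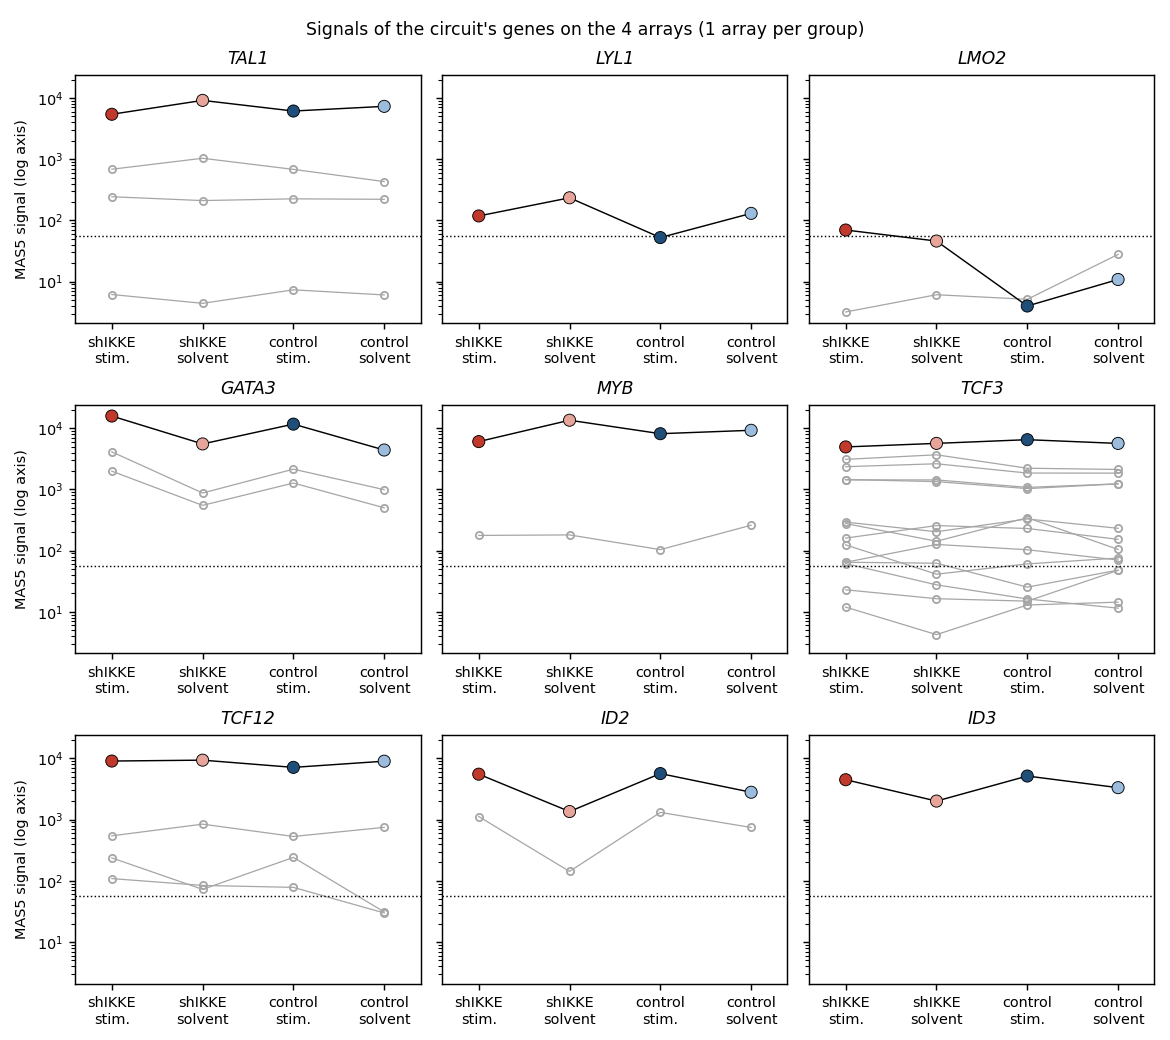
MAS5 signal (log axis) of the 9 measured genes on the 4 arrays, with the brightest probe set of each gene as filled points, its other probe sets as grey circles and the filter of 56.4 as a dotted line. GATA3, ID2 and ID3 were higher on both stimulated arrays than on both solvent arrays, and TAL1, LYL1 and MYB were lower by their brightest probe sets.

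LMO2, the bridging subunit, was near or below the filter on all arrays. Its brighter probe set read 69.7 in the stimulated shIKKE line, 46.0 in the shIKKE line with solvent, 4.0 in the stimulated control line and 10.8 in the control line with solvent. It passed the filter through 1 array only, that of the stimulated shIKKE line, so a difference between arrays was a condition of its being kept. The second LMO2 probe set read 3.2, 6.1, 5.1 and 27.9 on the same arrays in the same order, which puts the highest signal in the control line instead. The log2 differences of the brighter probe set between the lines, 2.21 with stimulation and 1.27 with solvent, are therefore values of a dim probe set that its partner did not share.

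GATA3, a zinc finger factor of T cell development and a partner of TAL1 in the complex, was higher with stimulation in each line by every one of its 3 probe sets. The brightest read 15784 in the stimulated shIKKE line against 5528 with solvent, and 11648 in the stimulated control line against 4398 with solvent. These are 2.86 and 2.65 times the solvent signals (log2 1.51 and 1.40). The second probe set read 4107 against 873 in the shIKKE line and 2141 against 991 in the control line, and the remaining one 1985 against 548 and 1271 against 501. Across the 3 probe sets, the log2 difference ran from 1.51 to 2.22 in the shIKKE line and from 1.10 to 1.40 in the control line. Between the lines GATA3 lay within 2-fold by each probe set in both treatments.

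MYB, a factor that binds with the TAL1 complex and sustains leukaemic growth, had its larger stimulation difference in the shIKKE line when read by the brighter of its 2 probe sets. That probe set read 6038 in the stimulated shIKKE line against 13486 with solvent (log2 -1.16), and 8124 in the stimulated control line against 9234 with solvent (log2 -0.18). The stimulated signals lay below both solvent signals. The dimmer probe set read 177 against 180 in the shIKKE line (log2 -0.02) and 104 against 260 in the control line (log2 -1.22), so the 2 probe sets placed the larger difference in different lines. With solvent, the brighter one was 1.46 times as high in the shIKKE line as in the control line.

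The E proteins, the obligate partners of TAL1 on DNA, were bright and close to level by their brightest probe sets. TCF3 read 4939 in the stimulated shIKKE line against 5645 with solvent (log2 -0.19), and 6488 in the stimulated control line against 5637 with solvent (log2 0.20). TCF12 read 9045 in the stimulated shIKKE line against 9354 with solvent (log2 -0.05), and 7129 in the stimulated control line against 8994 with solvent (log2 -0.33). Stimulated and solvent arrays overlapped for both genes, and the shIKKE over control differences of these probe sets lay between log2 -0.39 and 0.34.

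Dimmer probe sets of the E proteins behaved otherwise. Of 12 TCF3 probe sets past the filter, 11 lay within 2-fold with stimulation in the shIKKE line and 11 in the control line. The exceptions were different probe sets, one at 124 against 41.2 in the shIKKE line and the other at 345 against 105 in the control line. The first read 60.7 against 75.7 in the control line (log2 -0.26). The other was higher in the shIKKE line too, at 277 against 142 (log2 0.90), just inside 2-fold. For TCF12, a dim probe set read 237 in the stimulated shIKKE line against 72.5 with solvent (log2 1.54), and 241 in the stimulated control line against 31.0 with solvent (log2 2.50). Another TCF12 probe set read 109 against 84.1 and 78.2 against 29.9 in the same lines, and a further one read 543 against 843 and 530 against 747, lower with stimulation. The transcript regions that these probe sets report were not resolved here.

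ID2, an HLH inhibitor of E proteins, was higher with stimulation in each line and lower in the shIKKE line than in the control line with solvent. Its brighter probe set read 5520 in the stimulated shIKKE line against 1354 with solvent (log2 2.02), and 5647 in the stimulated control line against 2798 with solvent (log2 1.01). The stimulated arrays of the lines lay close together (log2 -0.03) and the solvent arrays did not (log2 -1.04). A second probe set read 1122 against 142 in the shIKKE line and 1311 against 744 in the control line, with a line difference of log2 -0.22 with stimulation and -2.28 with solvent. By both probe sets the higher resting signal was that of the control line.

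ID3, the second HLH inhibitor, gave the same order of the 4 arrays as ID2 by its 1 probe set. It read 4481 in the stimulated shIKKE line against 2006 with solvent (log2 1.15), and 5147 in the stimulated control line against 3323 with solvent (log2 0.63). Between the lines the log2 difference was -0.20 with stimulation and -0.72 with solvent. In mouse thymocytes ID3 is known as a target of EGR factors downstream of the T cell receptor. EGR1, an immediate early factor, read 18503 and 23198 on the stimulated shIKKE and control arrays, against 1035 and 9953 on the solvent arrays of the shIKKE and control lines, which is the order seen for ID2 and ID3. FOSB, another immediate early gene, read 302 and 272 on the stimulated arrays against 7.38 and 1364 on the solvent arrays of the same lines, so the solvent array of the control line was already high in both genes. Their part in the ID2 and ID3 signals was not tested. Set against the solvent array of the other line, an exchange of baselines added after seeing the data, the stimulated shIKKE line gave log2 0.98 for ID2 and 0.43 for ID3, and the stimulated control line gave 2.05 and 1.35. In the same exchange GATA3 gave 1.84 and 1.07.

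**Figure D2:**
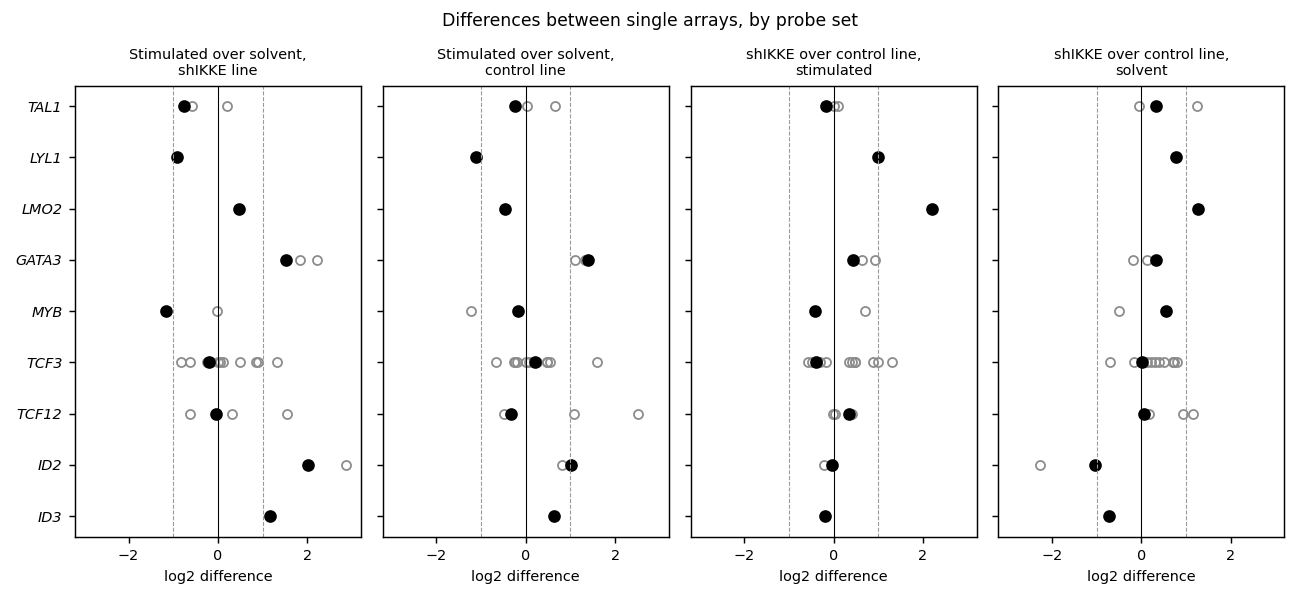
Log2 differences between single arrays for each gene, with the brightest probe set filled and the other probe sets past the filter as open circles; dashed lines mark 2-fold. The GATA3 probe sets lie beyond 2-fold in both stimulation panels, while the TCF3 probe sets spread from -0.83 to 1.32 in the shIKKE line.

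Taking each gene by its brightest probe set, stimulation of the shIKKE line gave 3 of 9 genes at least 2-fold higher (GATA3, ID2 and ID3), where 10.3% of all genes past the filter were, and 1 lower (MYB), where 2.68% were. Stimulation of the control line gave 2 of 9 higher (GATA3 and ID2), against 7.57% of all genes, and 1 lower (LYL1), against 6.44%. Both lines together had GATA3 and ID2 at least 2-fold higher, as were 3.29% of all genes, and 0 members were lower in both, as were 0.773%. Among the 29 member probe sets past the filter, 8 were higher and 1 lower in the shIKKE line, against 11.4% and 3.17% of all probe sets, and 7 were higher and 2 lower in the control line, against 10.1% and 6.38%. The share of all genes that differ depends on brightness. Among the 3430 genes of highest mean level, which include 7 of the 9, 2.13% were past 2-fold on the higher side and 0.437% on the lower side in the stimulated shIKKE line, and 2.62% and 1.43% in the stimulated control line. Of those 7 genes, 3 were higher and 1 lower in the shIKKE line, and 2 were higher and 0 lower in the control line.

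By order of signals alone, 3 of the 9 genes had both stimulated arrays above both solvent arrays (GATA3, ID2 and ID3), as did 21.7% of all genes, and 3 had them below (TAL1, LYL1 and MYB), as did 25.4%. The median of the 9 genes was log2 -0.05 in the shIKKE line and -0.18 in the control line, against -0.01 and -0.07 over all genes. Placed among 13717 genes, ID2 had rank 323 from the highest increase and GATA3 rank 696 in the shIKKE line, and GATA3 had rank 508 and ID2 rank 1023 in the control line. MYB had rank 244 from the largest decrease in the shIKKE line and rank 5681 in the control line. Of all genes past 2-fold, 79.4% were higher in the stimulated shIKKE line, against 53.3% after quantile normalization and 42.7% after median centring. In the control line these shares were 54.0%, 40.6% and 30.6%. Median centring moved the median of all genes to log2 -0.40 in the shIKKE line and -0.30 in the control line. GATA3 kept log2 1.13 and 1.17 under it and ID2 1.63 and 0.78, ID3 had 0.77 and 0.40, and TAL1 reached -1.14 in the shIKKE line.

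**Figure D3:**
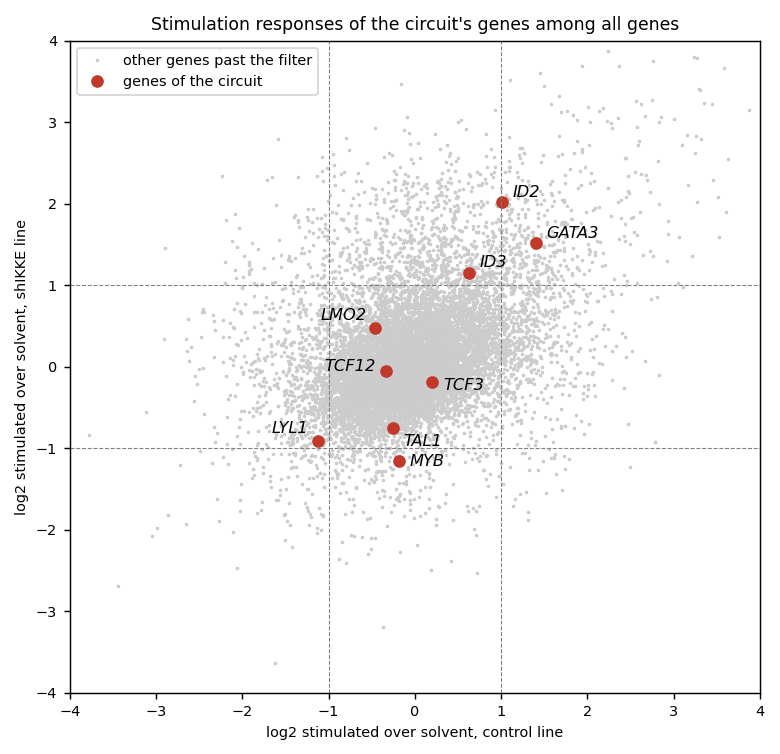
Log2 stimulated over solvent in the shIKKE line (y axis) and in the control line (x axis) for 13717 genes by their brightest probe sets, with the 9 measured genes of the circuit in red and 2-fold as dashed lines; 30 genes fall outside the axes. GATA3 and ID2 lie beyond 2-fold in both lines, ID3 and MYB in the shIKKE line, and LYL1 in the control line.

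The average effect of stimulation over both lines was fitted with limma in an additive model of line and stimulation. Its 1 residual degree of freedom comes from how far the responses of the lines differ, so the error in it is not one between replicates. None of the 9 genes passed at an adjusted p of 0.05 over 13717 genes, of which 0.00729% did. GATA3 came nearest, with log2 1.46 ± 0.25 (SE; limma adjusted p = 0.149), ahead of ID2 with log2 1.51 ± 0.34 (SE; limma adjusted p = 0.195). LYL1 had log2 -1.01 ± 0.25 (SE; limma adjusted p = 0.223) and ID3 log2 0.89 ± 0.28 (SE; limma adjusted p = 0.294). At an unadjusted p under 0.05 in limma these 4 of 9 genes passed, as did 13.8% of all genes. MYB, TAL1, TCF12, TCF3 and LMO2 had limma adjusted p from 0.450 to 0.995. In a limma fit whose prior variance was a function of the mean level, GATA3, ID2, ID3 and MYB passed, with 639 genes higher and 405 lower in all.

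The lines were then compared, shIKKE over control. With stimulation, 1 of 9 genes was at least 2-fold higher (LMO2, by the dim probe set described above), against 5.99% of all genes, and 0 were lower, against 2.37%. With solvent, 1 was higher (LMO2 again), against 4.34%, and 1 was lower (ID2), against 6.68%. LYL1, at log2 0.99 with stimulation, lay just inside 2-fold, and ID2, at log2 -1.04 with solvent, just beyond it. In the additive limma model of the average line effect, 0 of 9 genes passed at an adjusted p of 0.05 and 0 of 13717 did. LYL1 (log2 0.89 ± 0.25, SE; limma adjusted p = 0.614) had an unadjusted p under 0.05, as did 7.29% of all genes. LMO2 did too, but it was kept through the array where it is highest, so its p supports nothing. TAL1, GATA3, MYB, TCF3 and TCF12 thus stood within 2-fold between the lines in each treatment by their brightest probe sets, with log2 differences from -0.43 to 0.55.

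The difference of the lines' responses, shIKKE minus control, was at least 2-fold for 1 of 9 genes, ID2 at log2 1.01, where 11.4% of all genes reached that on the positive side, and 4.67% on the negative side. The second ID2 probe set gave 2.05. MYB followed at log2 -0.97 by its brighter probe set but was at 1.19 by the dimmer one, so its direction was not shared. LMO2, kept through 1 array only, was at 0.94. TAL1 was at -0.50 by its brightest probe set, -1.23 by the second and 0.17 by the next. For GATA3 the difference of responses was 0.11 by the brightest probe set, 1.12 by the second and 0.51 by the remaining one. This difference has no replicate and no test.

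The wider complex was described with lists of genes grouped by role, with members at least 2-fold different named. LDB1, CBFB and ID4 were added for their role after their values were seen. So were the stimulation values of PTCRA, which was past 2-fold only between the lines with solvent. Of 25 complex partners and cofactors, all 25 passed the filter, and 3 were at least 2-fold higher and 0 lower in the stimulated shIKKE line, with a median of log2 0.03. In the stimulated control line 3 were higher and 3 lower, with the same median. Each count of 3 is 12% of the list, where 10.3% of all genes were higher and 2.68% lower in the shIKKE line, and 7.57% higher and 6.44% lower in the control line. RUNX3, a relative of RUNX1, read 4152 against 848 in the shIKKE line and 4392 against 1028 in the control line (log2 2.27 and 2.08). RCOR1, the corepressor that joins TAL1 complexes with the demethylase KDM1A, read 6984 against 2719 and 8567 against 2889 (log2 1.36 and 1.56). LDB1, the scaffold that LMO2 binds, read 389 against 471 and 331 against 324, and CBFB, the partner subunit of RUNX factors, read 11846 against 8780 and 14795 against 9316. The coactivator gene EP300 was higher in the shIKKE line (log2 1.14) and RUNX2 in the control line (log2 1.21), where GATA1 (log2 -1.48), FLI1 (log2 -1.45) and ERG (log2 -1.21) were lower. ERG read 27.6 in the stimulated control line against 82.3 with solvent and passed the filter through that solvent array alone, so its place in the count follows from the filter. With solvent, 0 of the 25 differed 2-fold between the lines, where 4.34% of all genes were higher and 6.68% lower in the shIKKE line. With stimulation GATA1 was higher (log2 2.21) and RUNX2 lower (log2 -1.40) in the shIKKE line, against 5.99% and 2.37% of all genes. For GATA1 this was 122 against the dim signal of 15.4, which enters both of its differences.

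Among other HLH factors, those past 2-fold with stimulation were all higher, as ID2 and ID3 were. Of 10 listed, 6 passed the filter, with 3 at least 2-fold higher in the stimulated shIKKE line, 4 in the stimulated control line and 0 lower in either, where 10.3% and 7.57% of all genes were higher and 2.68% and 6.44% lower. The median of the 6 was log2 0.92 in the shIKKE line and 1.05 in the control line, and for shIKKE over control it was -0.40 with stimulation and -0.58 with solvent. ID1, a further inhibitor of this family, read 2070 against 686 in the shIKKE line and 2817 against 1341 in the control line (log2 1.57 and 1.06). It was the higher one in the control line with solvent (log2 -0.95 for shIKKE over control), the same order of the 4 arrays as ID2 and ID3. BHLHE40, a bHLH repressor of activated T cells, read 1234 against 197 and 1588 against 282, and HEY1, a Notch-responsive repressor, read 546 against 250 and 852 against 406. BHLHE41, the remaining one of the 4, read 61.6 in the stimulated control line against 19.9 with solvent (log2 1.16) and passed the filter through that stimulated array alone, so a difference was a condition of its being kept. ID4 stayed near the filter, between 58.5 and 90.2. HES1 was the 1 member that differed 2-fold between the lines with solvent (log2 -1.41). Of all genes, 6.68% were lower and 4.34% higher in the shIKKE line in that comparison.

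Genes reported as TAL1 targets in T cell leukaemia were described in the same way. Of 20 listed, 17 passed the filter, and in the stimulated shIKKE line 3 were at least 2-fold lower and 1 higher, with a median of log2 -0.30. The stimulated control line had 6 of them lower and 1 higher, with a median of log2 -0.67, against -0.07 over all genes. Of all genes, 2.68% were lower and 10.3% higher in the shIKKE line, and 6.44% lower and 7.57% higher in the control line. ARID5B, a chromatin factor that TAL1 activates in leukaemia cells, read 686 against 2148 in the shIKKE line and 369 against 1858 in the control line (log2 -1.63 and -2.29). TRIB2, a pseudokinase gene, read 1497 against 3346 and 1512 against 1701 (log2 -1.15 and -0.17). ALDH1A2, a retinoic acid synthesis gene, read 1276 against 1860 and 1762 against 4276 (log2 -0.54 and -1.27). GIMAP4 and GIMAP1, lymphocyte GTPase genes, were lower in the stimulated control line (log2 -2.32 and -1.40) and lower in the shIKKE line with solvent (log2 -1.74 and -1.03). ALDH1A2 was likewise lower with solvent (log2 -1.20), so each of these 3 genes was highest on the solvent array of the control line. That array enters both comparisons. MYC was lower in both lines (log2 -2.21 and -1.43), ERG, kept only through its solvent array, in the control line (log2 -1.21), and NFKB1, described as a gene that TAL1 represses, was higher (log2 1.96 and 2.14). None of the 17 passed in limma.

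**Figure D4:**
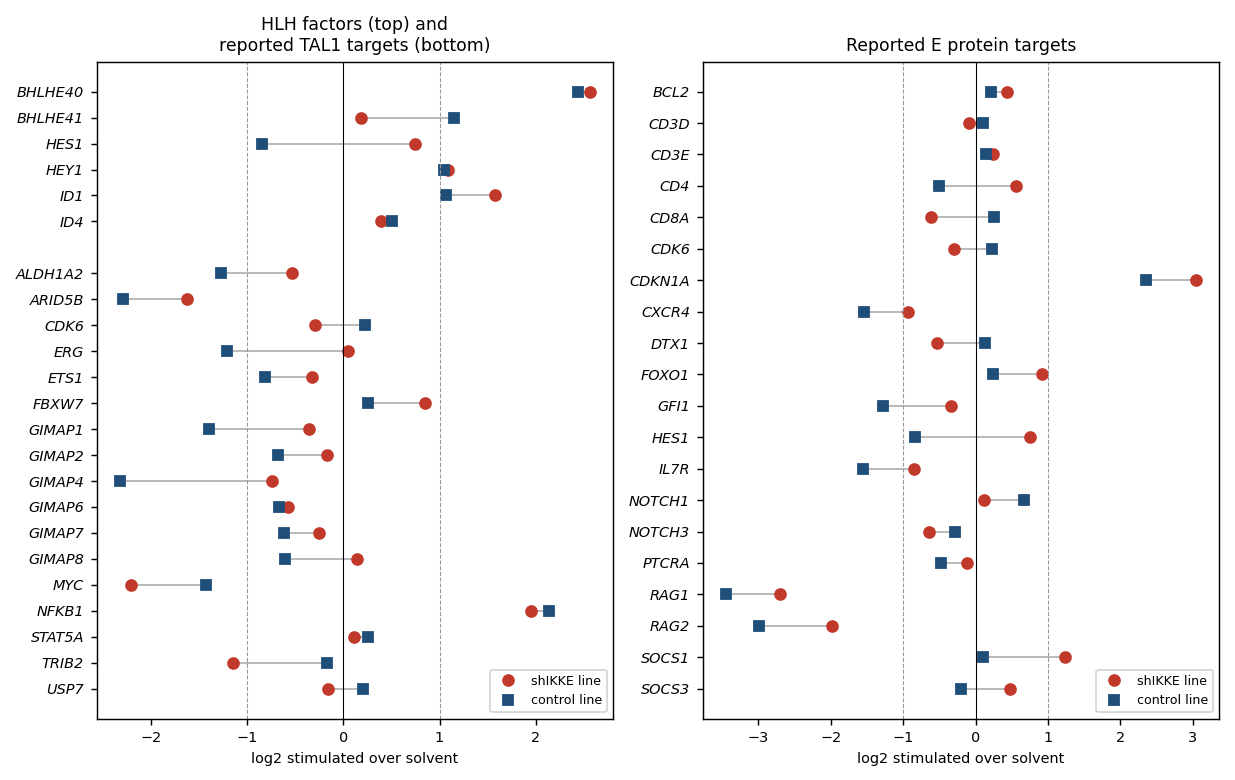
Log2 stimulated over solvent in the shIKKE line (red circles) and the control line (blue squares) for other HLH factors, reported TAL1 targets and reported E protein targets past the filter, with 2-fold as dashed lines. ID1, BHLHE40 and HEY1 lie beyond 2-fold on the higher side in both lines, and ARID5B, MYC, RAG1 and RAG2 on the lower side.

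Reported targets of E proteins in T cell precursors all passed the filter (20 of 20), with 2 higher and 2 lower in the stimulated shIKKE line and 1 higher and 5 lower in the stimulated control line. The shares of all genes were 10.3% higher and 2.68% lower in the shIKKE line and 7.57% and 6.44% in the control line. The medians of the 20 were log2 -0.10 and -0.05, against -0.01 and -0.07 over all genes. RAG1 (log2 -2.70 and -3.45) and RAG2 (log2 -1.98 and -2.99), the recombinase genes, were lower in both lines, and CDKN1A, a cell cycle inhibitor that E proteins induce, was higher (log2 3.05 and 2.36). SOCS1 was higher in the shIKKE line (log2 1.24). IL7R and CXCR4 (log2 -1.55 each) and GFI1 (log2 -1.28) were at least 2-fold lower in the control line. In the shIKKE line IL7R (log2 -0.85) and CXCR4 (log2 -0.94) were lower too, just within 2-fold, and GFI1 was at -0.34. PTCRA, the pre-T cell receptor gene under direct E protein control, read 322 against 349 and 583 against 817, within 2-fold in each line. It was lower in the shIKKE line with solvent (log2 -1.19), as were GFI1 (log2 -1.74), HES1 (-1.41), CDKN1A (-1.17) and, just past 2-fold, SOCS1, while CD8A, at log2 1.04, passed the filter only through the arrays of the shIKKE line (60.9 and 100.3, against 52.5 and 41.7 in the control line). PTCRA, GFI1 and HES1 were highest on the solvent array of the control line. That array enters the solvent comparison and the control line's stimulation difference. The median of the 20 for shIKKE over control was log2 -0.62 with solvent, against -0.05 over all genes, and 0.03 with stimulation. With stimulation 1 of the 20, NOTCH3, was 2-fold lower in the shIKKE line (log2 -1.23) and 0 were higher, against 2.37% and 5.99% of all genes. With solvent 5 of the 20 were lower and 1 higher, against 6.68% and 4.34%.

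Of 20 listed leukaemia genes outside the complex, 12 passed the filter. Stimulation gave 1 higher (MYCN) and 2 lower (MYC and BCL11B) in the shIKKE line, and 0 higher and 1 lower (MYC) in the control line, with medians of log2 0.05 and -0.25. Against the all-gene shares of 10.3% higher and 2.68% lower in the shIKKE line and 7.57% and 6.44% in the control line, counts this small are a description only, as are those of the T lineage factors. BCL11B, a T lineage tumour suppressor, read 1629 against 6891 in the shIKKE line and 2665 against 4464 in the control line (log2 -2.07 and -0.74). MYCN read 2606 against 993 and 751 against 484 (log2 1.38 and 0.62) and was higher in the shIKKE line in both treatments (log2 1.78 and 1.01). WT1 was lower there in both (log2 -1.10 and -1.25), while CDKN2A, at log2 -1.37 with solvent, passed the filter only through the arrays of the control line (64.6 and 59.2, against 37.4 and 14.3 in the shIKKE line). Of 19 listed T lineage factors, 14 passed the filter and 1 was higher in each line, TBX21 (log2 2.56 and 2.44), a factor of type 1 helper differentiation. BCL11B was lower in the shIKKE line, and IKZF2 (log2 -1.84), RORA (-1.83) and GFI1 in the control line. Between the lines 0 of the 14 differed 2-fold with stimulation, and GFI1 and RORA (log2 -1.23) were lower with solvent. Both genes were highest on the solvent array of the control line, which enters that comparison and the control line's stimulation difference. Of all genes, 5.99% were higher and 2.37% lower in the shIKKE line with stimulation, and 4.34% and 6.68% with solvent.

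TAL1 ranged over log2 0.75 on the 4 arrays, under the range of 1 required before genes of like pattern were named. LMO2 had the widest range, 2.21. The 5 genes nearest to it by Euclidean distance between centred log2 values over the 4 arrays were PTGFRN (0.14), TBC1D29P (0.20), ELMOD1, ZC2HC1C (0.26 each) and KIR3DX1 (0.27). All 5 were dim, at 110 or below on every array, as LMO2 was. LMO2 passed the filter through the stimulated shIKKE array alone, and all 5 passed it only through arrays of the shIKKE line. A difference between arrays was thus a condition of their being kept, so the likeness is partly set by the filter. Shared regulation was not tested.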

How the data were processed

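The deposited values are linear intensities, 1 per probe set and array, made by the authors with MAS5 according to the submitters' processing notes. Its version, scaling target and any filter were not given in the sources used here. With 2% trimmed from each end, mean signals of the 4 arrays lay at 500.1, so they share a scaling. The 5′ to 3′ signal ratio lay between 0.24 and 0.40 for the ACTB control and between 1.04 and 1.17 for GAPDH. Its part in differences between arrays or probe sets was not tested. RNA was labelled from 6 ug of total RNA, per the labels' protocols. Array controls (62 probe sets) were left out. Of the rest, 41091 carried 1 gene symbol, 1801 several and 11721 none, and 41037 of the first matched RefSeq (GRCh38.p14) by gene ID.

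The pseudocount was the 25th percentile of all signals, and the probe set of highest mean log2 value stood for its gene. Single arrays were compared as log2 differences, counted from 2-fold (log2 of 1). Average effects were tested in limma (version 3.58.1, R 4.3.3), two-sided, with Benjamini-Hochberg adjustment, and the fit was tested on simulated data. The number of arrays limits the precision, and the labels do not say whether cultures were separate. Tables used Python 3.11.15, pandas 2.3.3 and numpy 2.4.6, and plots matplotlib 3.10.9. Motifs were searched in RefSeq promoter windows.

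Members, lists and tests were chosen with earlier results of these data known. All measured members were named. From each other list, up to 6 members at least 2-fold different per comparison were named, the largest first. LDB1, CBFB and ID4, and the stimulation values of PTCRA, were added for their role. Genes of like pattern were sought for TAL1 and the member of widest range. Alternatives covered pseudocount, filter, normalization, probe set choice, the limma variance model and, added after seeing the data, the solvent array used as baseline.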

Additional observations from a re-analysis of the deposited data

Results flagged for a closer look

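Some genes of the circuit had opposite directions in the groups compared, by their brightest probe sets, and none of these differences was tested. With stimulation, LMO2 was at log2 0.48 in the shIKKE line and -0.46 in the control line, and TCF3 at -0.19 and 0.20. For shIKKE over control, TAL1 was at log2 -0.17 with stimulation and 0.32 with solvent, MYB at -0.43 and 0.55, and TCF3 at -0.39 and 0.0020. On the scale with 14.1 added all of these lay within 2-fold, but the LMO2 signal of the stimulated control line was 0.369 times that with solvent, at log2 -1.44 with no pseudocount.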

How the results depend on the processing

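No paired analysis was possible because each group is 1 array and the labels carry no replicate numbers. GATA3 was at least 2-fold higher with stimulation in both lines under each of the 8 alternatives for processing. The count of members past 2-fold was 4 in the stimulated shIKKE line and 3 in the stimulated control line, and 2 and 5 with the solvent array of the other line as baseline. In the shIKKE line MYB dropped out with the median of probe sets (log2 -0.59), LYL1 came in after quantile normalization (-1.25) and cyclic loess (-1.20), and median centring brought in LYL1 (-1.29) and TAL1 (-1.14) and took out ID3 (0.77). In the control line ID2 dropped out under median centring (0.78) and with the median of probe sets (0.91), LMO2 came in with a pseudocount of 1 (-1.24) or none (-1.44), and the stricter filter removed LYL1. For the lines with stimulation it was 1, but 2 with a pseudocount of 1 or none (LYL1 added) and 0 with the stricter filter, which removes LMO2. With solvent it was 2, 1 with the stricter filter, and 3 with the median of probe sets (TAL1 added, at log2 1.24 against 0.32). For the difference of responses it was 1, 2 with a pseudocount of 1 or none, 0 after quantile normalization and 3 with the median of probe sets. Under median centring the 1 gene past 2-fold in that difference was MYB (log2 -1.12) in place of ID2 (0.85). With the median of probe sets TAL1 changed sign in the stimulated control line, to log2 0.65 against -0.25, within 2-fold. Under the same setting TCF12 reversed in that line, to log2 1.01 against -0.33. The median of its 4 probe sets is the mean of the middle pair. On both control arrays that pair held the dim probe set at 241 against 31.0 (log2 2.50). In limma, 0 members passed for stimulation, 4 with the variance following the level (639 genes higher and 405 lower in all) and 3 with the stricter filter (378 and 199), against 1 and 0 genes; the stricter filter tests 8425 genes. Over all genes, the count higher and lower ranged from 364 to 2200 and 100 to 1108 in the shIKKE line (1417 and 368 as reported), 432 to 1648 and 372 to 1550 in the control line (1039 and 884), 59 to 1560 and 68 to 704 for the lines with stimulation (822 and 325), and 162 to 1235 and 326 to 1458 with solvent (596 and 916). The share higher among the genes past 2-fold for the lines with stimulation was 71.7%, against 59.3% after quantile normalization, 58.2% after median centring and 46.5% with the stricter filter.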
